A study of Homo sapiens with 8 samples.

Results

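DET1 and its partners form a family of CUL4-based ubiquitin ligases, and 8 genes of this family (DET1, COP1, TRIB1, DDB1, DDA1, CUL4A, CUL4B and RBX1) were followed here through total and Ago2-bound RNA of KM-H2 cells. The members were taken by gene symbol alone, and all probes assigned to them were used, 13 of the 41000 probes on the array and 8 of the 16551 genes that could be named. Of these 13 probes, 12 passed the filters on signal and on agreement between labellings, and each of the 8 genes had at least 1 such retained probe. The remaining probe, A_23_P123503 of TRIB1, is described with its values and left out of all counts.

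KM-H2 is a cell line derived from Hodgkin lymphoma, a B-cell lymphoma, and is rich in miR-155. The cells carried either the empty retroviral vector pMSCV-PIG (EV) or a retroviral sponge against miR-155 (miR-155-sp, here sponge cells), whose transcript offers decoy sites to the miRNA, and GFP-positive cells had been sorted in both cases. The study found no clear loss of miR-155 targets from Ago2-bound RNA in KM-H2 sponge cells. It proposed that the sponge left part of the abundant miR-155 free, so sponge cells cannot be taken as cells without active miR-155. Total RNA (T) and the RNA recovered by immunoprecipitation of Argonaute 2 (IP) were measured from each population, giving 4 RNA samples. Each RNA was labelled once with Cy3 and once with Cy5, and each array paired T and IP of the same population in opposite dyes, so that every ratio exists in 2 dye orientations. These are technical labellings of 1 RNA per group. No difference was checked in replicates, no test was possible, and the spread between orientations covers labelling and hybridization error only.

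Cullin-RING ligases attach ubiquitin to chosen proteins and so mark them for degradation. In this family a CUL4 scaffold (CUL4A or CUL4B) holds the RING protein RBX1 at its C-terminal end and the adaptor DDB1 at its N-terminal end, and DDB1 receives the proteins that pick the substrate. DET1, together with the small protein DDA1, docks on DDB1 and brings in COP1, itself a RING ligase, which marks transcription factors such as JUN for degradation. TRIB1 is a pseudokinase that presents C/EBP proteins to COP1. Argonaute 2 carries miRNAs to mRNAs with a matching site, and the ratio of IP to T therefore reads how much of a transcript is held by Argonaute 2 relative to other transcripts. The array does not tell which miRNA holds it.

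The miRNA that the sponge was built to capture pairs with its targets through its seed. It is shown because the comparison of EV with sponge cells turns on it, with the seed (bases 2 to 8) in capitals, from RefSeq (GRCh38.p14, plus strand, chr21:25573983-25574006).
hsa-miR-155-5p: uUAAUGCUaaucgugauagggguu

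The cell line was checked against its markers. Of 8 genes typical of Hodgkin lines, 7 (TNFRSF8, which encodes CD30, IRF4, TRAF1, CD70, FSCN1, CCL17 and the miR-155 host gene MIR155HG) were well above background in all 8 channels, and CCL22 in 0. Among B-cell genes, CD79A was detected in all 8 channels, CD79B in 0 and MS4A1 in 1. None of 7 genes of T cells, myeloid or epithelial cells reached all 8 channels, CD2 and CD14 being detected in 6, CD3E in 4 with its better probe, CD3D in 1 and LYZ, EPCAM and KRT5 in 0. The share of gene spots detected ranged from 38.8% to 61.9% per channel, the Cy5 channels being the dimmer ones. Normalization sets every channel to the same distribution, so all ratios are relative to the other probes. The 10 spike-in RNAs, which it does not use, had a median log2 IP/T of 0.14 in EV cells and of 1.57 in sponge cells.

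The study reported DET1, which links COP1 to the CUL4 core, as a target of miR-155 in a Burkitt lymphoma cell line. Its evidence there was Ago2-bound RNA, a luciferase reporter and lower DET1 protein. The study also reported DET1 as enriched in the Ago2-bound RNA of KM-H2 cells with the empty vector. For most of its selected targets, a group that included DET1, it described a mildly lower enrichment in KM-H2 sponge cells. The DET1 values given here come from the study's own KM-H2 arrays and are no independent finding. Here DET1 was read by a single probe, A_23_P26184, detected in all 8 channels. Its log2 normalized signal in total RNA was 9.71 (Cy3) and 9.65 (Cy5) in EV cells, and 9.96 (Cy3) and 10.08 (Cy5) in sponge cells. In the Ago2-bound fraction it was 12.10 (Cy3) and 12.17 (Cy5) in EV cells, and 11.77 (Cy3) and 11.79 (Cy5) in sponge cells. Both IP labellings thus lay above both T labellings in each population, and the IP signal was the lower one, and the T signal the higher one, in sponge cells under each dye. As whole populations were measured, fewer cells with a transcript and less RNA per cell cannot be told apart.

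**Figure D1:**
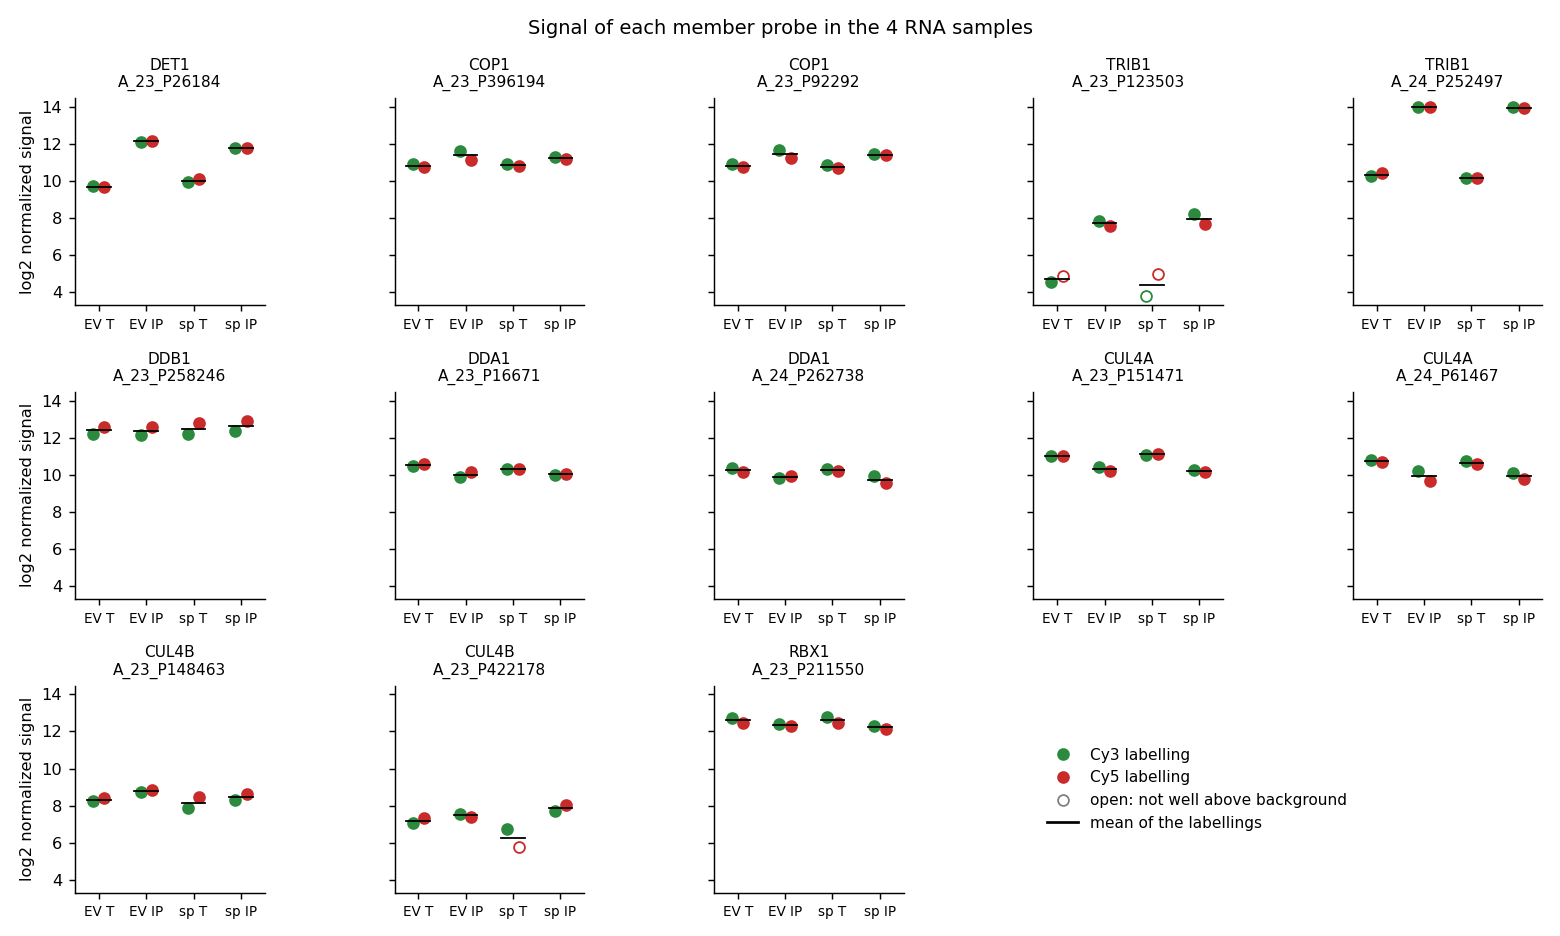
Log2 normalized signal (y axis) of the 13 member probes in total RNA (T) and Ago2-bound RNA (IP) of EV and miR-155-sp (sp) cells (x axis), 1 panel per probe, with the Cy3 labelling in green, the Cy5 labelling in red, their mean as a line, and open points where a signal was not well above background. DET1 and TRIB1 stand far higher in IP than in T in both populations, and the low total RNA signals of A_23_P123503 and A_23_P422178 include the open points.

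The IP/T ratio of DET1 was 5.48 in EV cells, the orientation with IP in Cy5 giving 5.50 and that with IP in Cy3 5.46, and 3.39 in sponge cells, with 3.57 and 3.22. The orientations of the populations did not overlap. On the log2 scale the ratio was 2.45 in EV cells and 1.76 in sponge cells, a difference of -0.69 (-0.62 for IP in Cy5, -0.76 for IP in Cy3), or an IP/T 1.62-fold lower in sponge cells. The gap between orientations was 0.14, whereas over all retained probes the median gap was 0.25 and the 95th percentile 1.09. An IP/T as high as that of DET1 was seen for 678 (3.79%) of the 17912 retained probes in EV cells and for 1419 (7.92%) in sponge cells, and a difference as low for 408 probes (2.28%).

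The lower ratio of DET1 was made up of both fractions. Between sponge and EV cells its log2 signal differed by -0.35 in the IP (-0.33 in Cy3, -0.37 in Cy5) and by 0.34 in total RNA (0.25 in Cy3, 0.43 in Cy5). A total RNA difference at least as high was seen for 1202 (6.71%) of the retained probes. DET1 did not meet the criterion of an IP/T ratio of 2 or more in EV cells with a ratio lower by 2-fold or more in sponge cells. None of the 12 retained member probes did, and over all retained probes 0.145% did.

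TRIB1, the pseudokinase adaptor of COP1, had the highest IP/T of the family. With probe A_24_P252497 the log2 signal in total RNA was 10.26 (Cy3) and 10.42 (Cy5) in EV cells and 10.15 and 10.17 in sponge cells, against 13.97 (Cy3) and 13.97 (Cy5) in the IP of EV cells and 13.97 and 13.92 in that of sponge cells. The IP signal was about equal in the populations, and the T signal was slightly lower in sponge cells under each dye. The IP/T ratio was 12.4 in EV cells (13.1 for IP in Cy5, 11.7 for IP in Cy3) and 13.8 in sponge cells (13.6 and 13.9). An IP/T this high was found for 205 retained probes (1.14%) in EV cells and 202 (1.13%) in sponge cells.

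The difference in log2 IP/T of TRIB1 between the populations was 0.15 (0.06 and 0.25), less than its gap between orientations of 0.19. TRIB1 thus had a higher ratio than DET1 in both populations and no lower ratio in sponge cells. The other TRIB1 probe, A_23_P123503, was detected in 5 channels and was not retained, because its labellings of total RNA in sponge cells differed 2.29-fold. In EV cells its T signal was well above background in Cy3 only, and the orientation with T in Cy3 gave a ratio of 8.26. In sponge cells its T signal was not well above background under either dye, so only a bound can be given there, an IP at least 1.26-fold higher than T after background correction and within-array normalization. This bound is on another signal scale than the ratio of 8.26 in EV cells, so the populations cannot be compared with these values.

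**Figure D2:**
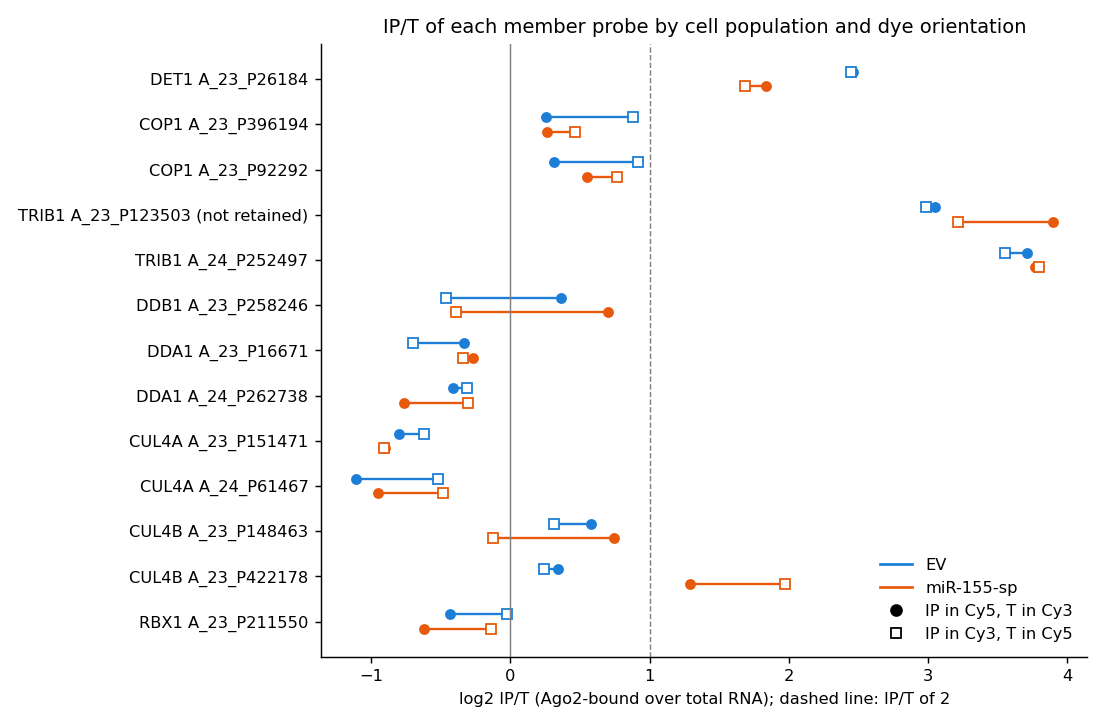
Log2 IP/T (x axis) of the 13 member probes (y axis) in EV cells (blue) and sponge cells (orange), with a filled circle for IP in Cy5 and an open square for IP in Cy3 joined by a line, a solid vertical line at an IP/T of 1 and a dashed one at 2. DET1 lies at 2.45 in EV cells and 1.76 in sponge cells without overlap, the retained TRIB1 probe (A_24_P252497) lies above 3.5 in both populations, the T signals of the other TRIB1 probe include points not well above background, and most other members lie between -1.2 and 1.

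COP1, the RING ligase that DET1 links to CUL4, was read by 2 probes that lay close to each other. A_23_P396194 had a ratio of 1.48 in EV cells (1.19 for IP in Cy5, 1.84 for IP in Cy3) and of 1.29 in sponge cells (1.20 and 1.38). A_23_P92292 had a ratio of 1.53 in EV cells (1.24 and 1.89) and of 1.58 in sponge cells (1.47 and 1.70). All these ratios were above 1 and below 2. The difference between populations was -0.20 on the log2 scale for the first probe (0.01 and -0.41) and 0.05 for the second (0.24 and -0.15), so neither probe kept a sign over both orientations, and the COP1 probes differed from each other by 0.25 in this value.

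DDB1, the adaptor on which every CUL4 substrate receptor docks, had an IP/T close to 1 that depended on the dyes. The ratio was 0.967 in EV cells, the IP in Cy5 giving 1.29 and the IP in Cy3 0.727, and 1.11 in sponge cells, with 1.62 and 0.762. In each population the orientations fell on opposite sides of 1, since the Cy5 labelling was the brighter one in all 4 samples, by 0.37 to 0.55 on the log2 scale. The difference between populations, in which such a dye effect cancels, was 0.20 (0.34 and 0.07).

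DDA1, the small subunit that joins DET1 and DDB1, lay below 1 with each of its 2 probes. A_23_P16671 had a ratio of 0.698 in EV cells (0.793 for IP in Cy5, 0.615 for IP in Cy3) and 0.808 in sponge cells (0.828 and 0.789). A_24_P262738 had 0.776 in EV cells (0.749 and 0.804) and 0.691 in sponge cells (0.589 and 0.810). The differences in log2 IP/T were 0.21 (0.06 and 0.36) and -0.17 (-0.35 and 0.01). The probes of DDA1 thus differed in opposite directions, by less than 0.4 from each other, and give no direction for the gene.

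CUL4A, which holds DDB1 and RBX1 in one assembly, had the lowest IP/T of the family. A_23_P151471 had a ratio of 0.610 in EV cells (0.574 and 0.649) and 0.533 in sponge cells (0.535 and 0.532). A_24_P61467 had 0.568 in EV cells (0.463 and 0.697) and 0.607 in sponge cells (0.517 and 0.714). Every orientation was below 1. Between the populations the log2 ratios differed by -0.19 with the first probe (-0.10 and -0.29) and by 0.10 with the second (0.16 and 0.03), again with opposite signs. RBX1, the RING protein that recruits the ubiquitin-conjugating enzyme, had a ratio of 0.852 in EV cells (0.740 and 0.981) and 0.767 in sponge cells (0.649 and 0.907), a log2 difference of -0.15 (-0.19 and -0.11).

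CUL4B, the second scaffold, had the widest gap between its probes in the difference between populations, 1.47 on the log2 scale, although both are assigned to the same transcript record. A_23_P148463, detected in all 8 channels, had a ratio of 1.36 in EV cells (1.49 and 1.24) and 1.24 in sponge cells (1.67 and 0.918), a log2 difference of -0.14 (0.16 and -0.44). A_23_P422178 had a log2 IP/T of 0.29 (0.34 and 0.24) in EV cells and of 1.63 (1.29 and 1.97) in sponge cells, a log2 difference of 1.34 (0.95 and 1.73). The probes were 0.15 apart in log2 IP/T in EV cells and 1.32 apart in sponge cells.

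The labellings of A_23_P422178 were uneven in the total RNA of sponge cells. In T its log2 signal was 7.06 (Cy3) and 7.31 (Cy5) in EV cells, and 6.73 (Cy3) and 5.76 (Cy5) in sponge cells, where the Cy5 labelling was not well above background. In IP it was 7.55 and 7.41 in EV cells, and 7.73 and 8.02 in sponge cells. The labellings of T in sponge cells lay 0.97 apart, just inside the 2-fold limit. With the Cy3 labellings alone the log2 difference of IP/T was 0.51 and with the Cy5 labellings alone 2.16. Background correction with normexp brought the difference to 0.31 with loess and Aquantile normalization and to 0.62 with quantile normalization, and the IP/T in sponge cells then lay below 2. This probe was 1 of the 0.458% of retained probes with an IP/T ratio of 2 or more in sponge cells and a ratio lower by 2-fold or more in EV cells, and a log2 difference as high was found for 36 probes (0.201%).

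**Figure D3:**
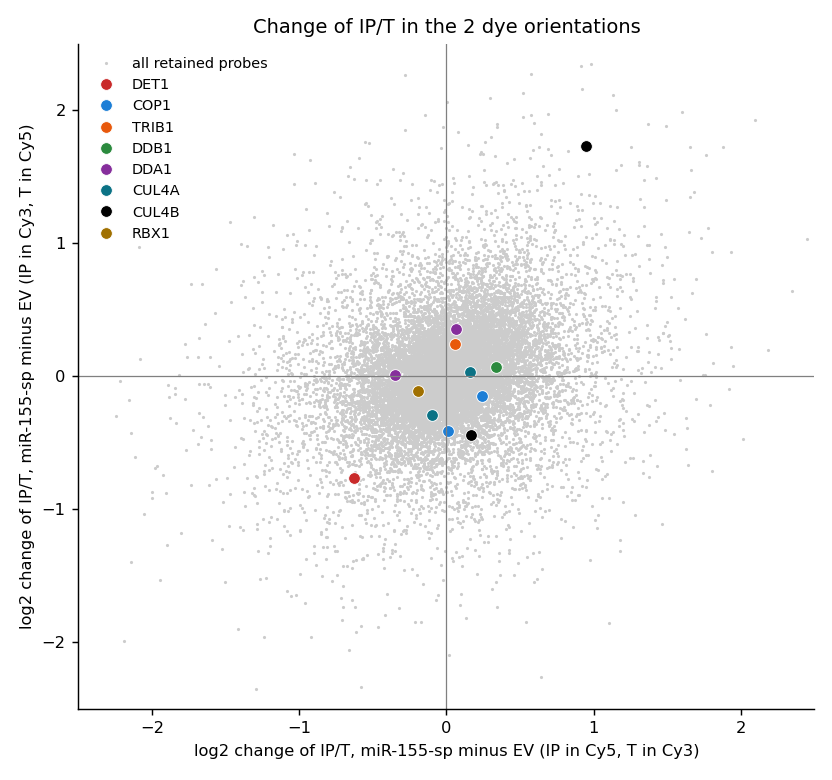
Log2 difference of IP/T between miR-155-sp and EV cells with IP in Cy5 (x axis) and with IP in Cy3 (y axis) for the 17912 retained probes in grey (5 of them outside the axes) and the 12 retained member probes in colour, 1 colour per gene. DET1 lies at -0.62 and -0.76, one CUL4B probe (A_23_P422178) at 0.95 and 1.73, and the other members lie within 0.5 of 0 on each axis.

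Counted over the family, 2 of the 12 retained probes (DET1 and TRIB1) reached a ratio of 2 or more in EV cells, beside 14.8% of all retained probes. In sponge cells the count was 3 (DET1, TRIB1 and A_23_P422178 of CUL4B), beside 15.6%. The count in sponge cells was 2 of 11 with detection required in all 8 channels and 2 of 13 with normexp, each without the CUL4B probe. No share of all probes in sponge cells was at hand for these settings. An IP/T above 1 in both orientations of both populations was seen for 5 of 12 probes (those of DET1, TRIB1 and COP1 and A_23_P422178 of CUL4B), beside 28.4% of all retained probes. An IP/T below 1 throughout was seen for 5 of 12 probes (those of CUL4A, DDA1 and RBX1), beside 46.0%.

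In order of IP/T in EV cells, retained probes ran from TRIB1 and DET1 through COP1, CUL4B, DDB1 and RBX1 to DDA1 and CUL4A. TRIB1 and DET1 were separated from each other and from all others by more than their orientations spread, whereas the ranges of neighbours from COP1 to CUL4A overlapped. The median log2 IP/T of the 12 probes was 0.12 in EV cells and 0.23 in sponge cells, against -0.24 and -0.26 over all retained probes.

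The IP/T was lower in sponge cells in both orientations for 3 of 12 member probes, DET1, RBX1 and A_23_P151471 of CUL4A, beside 30.3% of all retained probes. With normexp, which retained 13 member probes, 6 of 13 were lower, beside 29.4% of all probes retained with loess and Aquantile and 29.2% with quantile normalization. It was higher in both orientations for 5 of 12, those of TRIB1 and DDB1 and 1 probe each of DDA1, CUL4A and CUL4B, beside 30.6%. These directions are relative to all probes, and relative to the spike-in RNAs the mean difference was negative for all 12. The median difference over the 12 probes was -0.05, and over all retained probes -0.00248. Apart from DET1 and A_23_P422178, the member differences lay between -0.20 and 0.21, against a median absolute difference of 0.17 over all retained probes.

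In total RNA, signals were higher in sponge cells under both dyes for 4 of 12 member probes, beside 32.4% of all retained probes. These were DET1 (0.34), DDB1 (0.09), A_23_P151471 of CUL4A (0.09) and RBX1 (0.02), as log2 differences. Signals were lower under both dyes for 5 of 12, beside 32.9%, namely TRIB1 (-0.18), A_23_P16671 of DDA1 (-0.19), A_24_P61467 of CUL4A (-0.09), A_23_P92292 of COP1 (-0.06) and A_23_P422178 of CUL4B (-0.95). The median absolute difference of total RNA over all retained probes was 0.14 and the 95th percentile 0.53, and the value of the CUL4B probe, the only one among the members beyond the latter, was -0.34 in Cy3 and -1.55 in Cy5, where its T signal in sponge cells was not well above background.

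**Figure D4:**
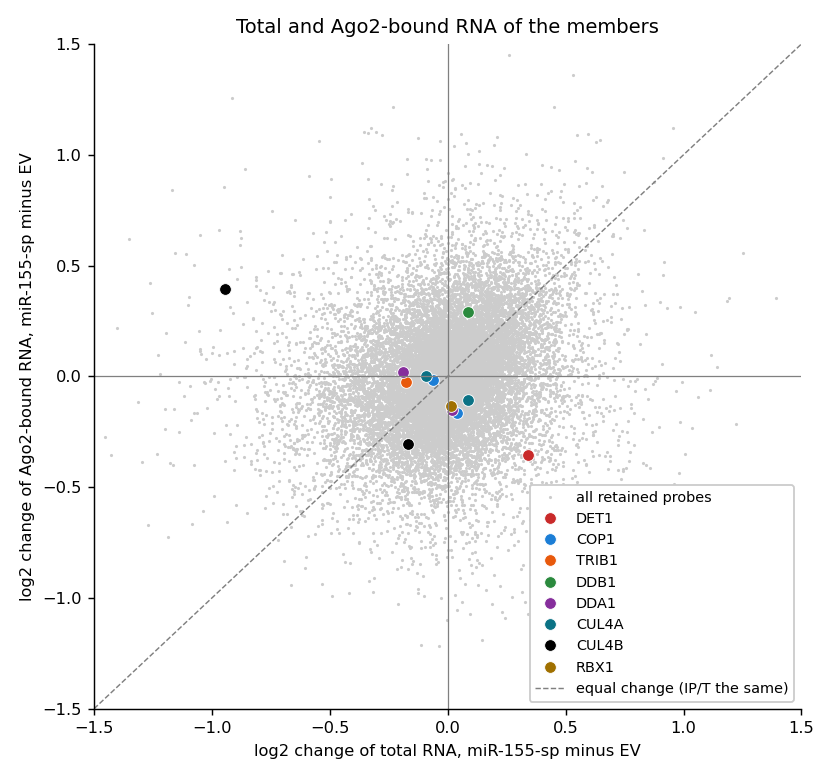
Log2 difference between miR-155-sp and EV cells in total RNA (x axis) and in Ago2-bound RNA (y axis) for the 17912 retained probes in grey (4 of them outside the axes) and the 12 retained member probes in colour, 1 colour per gene, with a dashed line where both fractions differ equally. DET1 lies at 0.34 and -0.35, below the line, and A_23_P422178 of CUL4B at -0.95 and 0.39, above it, while the other members lie closer to the line.

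The other genes of the pathway were described from lists of genes with related roles. Where a gene had several probes, the value given is that of its probe at that end of the list. The first list held 23 CUL4 substrate receptors, the WD40 proteins and relatives that dock on DDB1 in place of DET1, and all 23 had at least 1 retained probe. Of their 36 retained probes 8 (22.2%) reached a ratio of 2 or more in EV cells and 4 (11.1%) in sponge cells, beside 14.8% and 15.6% of all retained probes. The highest ratios in EV cells were those of BRWD3 (5.69 and 4.62 with its 2 probes) and BRWD1 (2.72), bromodomain proteins, and the lowest those of FBXW5 (0.489) and DCAF5 (0.511). The IP/T was lower in sponge cells in both orientations for 5 probes and higher in both for 10, or 13.9% and 27.8% beside 30.3% and 30.6% of all retained probes. DCAF8, with a log2 difference of -0.65 (-0.69 and -0.61), and BRWD1, with -0.63 (-0.51 and -0.74), had differences close in size to that of DET1. The median log2 difference of the list was 0.11.

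The second list held 23 genes of cullin neddylation, the attachment of NEDD8 that switches cullins on, and of the COP9 signalosome, which removes it. Of 23 retained probes for 19 genes, 9 (39.1%) reached a ratio of 2 or more in EV cells and 8 (34.8%) in sponge cells, beside 14.8% and 15.6% of all retained probes. DCUN1D4 (11.5) and DCUN1D3 (6.45), DCN1-like proteins that act in neddylation, and the signalosome subunit COPS2 (3.20) were highest in EV cells, and the NEDD8-conjugating enzymes UBE2M (0.413) and UBE2F (0.435) lowest. The IP/T was lower in sponge cells in both orientations for 11 probes (47.8%) and higher for 5 (21.7%), beside 30.3% and 30.6% of all retained probes, with a median difference of -0.03. The signalosome subunits COPS7B and COPS2 had log2 differences of -0.44 (-0.24 and -0.63) and -0.32 (-0.29 and -0.34).

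The third list held the cullins outside the CUL4 pair and RNF7, the relative of RBX1 that serves CUL5. Of its 7 genes 5 had a retained probe, 6 probes in all, and 2 of these probes reached a ratio of 2 or more in EV cells and 3 in sponge cells, too few to set as shares beside the 14.8% and 15.6% of all retained probes. The IP/T was lower in sponge cells in both orientations for 2 of the 6 probes and higher for 1, beside 30.3% and 30.6% of all retained probes. In EV cells CUL5 had a ratio of 6.79, RNF7 of 2.76 and CUL2 of 1.73, whereas CUL1 with its lower probe had 1.03 and CUL9 0.621. Of the cullins with retained probes CUL4A, with 0.568 and 0.610, and CUL9 were thus the lowest in EV cells, and their orientations overlapped. In sponge cells CUL9, with 0.511, lay below both CUL4A probes (0.533 and 0.607). The log2 differences of RNF7 and CUL9 between populations were -0.36 (-0.34 and -0.39) and -0.28 (-0.23 and -0.34).

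The fourth list held 21 genes, namely known substrates of COP1, the paralogs of TRIB1 and ubiquitin-conjugating (E2) enzymes that work with these ligases. Of 24 retained probes for 15 genes, 4 (16.7%) reached a ratio of 2 or more in EV cells and 5 (20.8%) in sponge cells, beside 14.8% and 15.6% of all retained probes. Probes of the C/EBP transcription factors, which TRIB1 presents to COP1, lay at opposite ends in EV cells. CEBPB had an IP/T of 4.35 with its higher probe, and CEBPA had 0.295 with its only retained probe. The other probes of CEBPA were well above background in 0 channels and were not retained. The other retained probe of CEBPB, detected in 5 channels, lay below a ratio of 2 in EV cells. The E2 enzyme UBE2D1 had 4.21 with its higher probe and CRTC2, a CREB coactivator, 3.80 with its higher probe, and the E2 enzyme UBE2D2 had 0.426. The other retained probe of UBE2D1, detected in all 8 channels, had 1.27 in EV cells. The IP/T was lower in sponge cells in both orientations for 11 probes (45.8%) and higher for 3 of 24, beside 30.3% and 30.6% of all retained probes. CEBPA, with 0.46 (0.51 and 0.41), and UBE2E2, with -0.46 (-0.33 and -0.58), had the largest log2 differences among probes detected in all 8 channels.

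**Figure D5:**
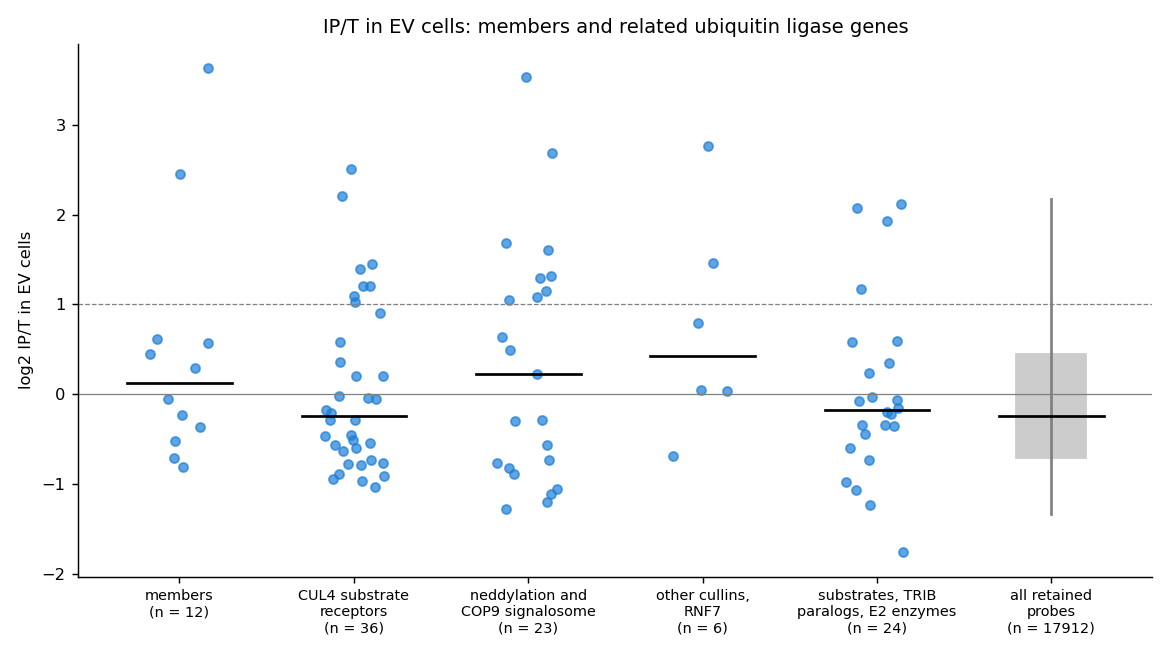
Log2 IP/T in EV cells (y axis) of the retained probes of the members and of the 4 pathway lists (x axis), 1 point per probe with the median as a line, beside all 17912 retained probes (line at the median of -0.24, box from the 25th to the 75th percentile, vertical line from the 5th to the 95th). TRIB1 and DET1, at 3.63 and 2.45, are the only members above the dashed line at an IP/T of 2, and each pathway list holds probes above it too.

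Over the 4 lists together 23 of 89 retained probes (25.8%) reached a ratio of 2 or more in EV cells, beside 14.8% of all retained probes. With normexp the count was 14 of 106 (loess and Aquantile) or 12 of 106 (quantile normalization), beside 6.02% and 6.64% of all probes retained there. With detection required in all 8 channels, which retained 13432 probes, it was 18, and no share of all probes was at hand to set beside it. The probes of DCUN1D4, CUL5 and CUL2, the higher probe of UBE2D1 and the higher probe of BRWD3 were well above background in 6 of the 8 channels, so their ratios include signals near background. None met the criterion of an IP/T ratio of 2 or more in EV cells and a ratio lower by 2-fold or more in sponge cells, and none its reverse. The list members share 1 set of RNA samples with DET1 and its partners and are no replicates of them.

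Likeness to DET1 was measured as the distance between profiles, the square root of the summed squared differences over the 8 log2 channel values after each probe was centred on its mean. The 5 named genes nearest to DET1 among retained probes were C9orf40 (0.32), the Wnt receptor FZD4 (0.37), the miRNA-processing nuclease DROSHA (0.37), the cell cycle phosphatase CDC25A (0.38) and the mitochondrial ribosomal protein MRPS18C (0.40), against a median distance of 3.35 over 12993 named probes. Their IP/T lay between 4.42 and 4.86 in EV cells and between 3.53 and 4.16 in sponge cells. Each of these 5 thus had a lower ratio in sponge cells, by 0.18 (MRPS18C) to 0.46 (CDC25A) on the log2 scale, less than DET1. As likeness was measured on the same 8 values, these are descriptions. The nearest partner was A_23_P92292 of COP1 at a distance of 2.18, followed by TRIB1 at 2.35, and the farthest were the CUL4A probes at 4.14 and 4.15.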

How the data were processed

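The measurements were 2-colour Agilent 44k arrays of 4 RNA samples, 1 per group, each labelled in Cy3 and in Cy5. The authors extracted spot intensity values with the Agilent Feature Extraction software (version 10.7.3.1 per the file headers, 10.5.1.1 per the submitters' processing notes), which subtracted background and normalized the dyes within an array. The authors also deposited log2 values, quantile-normalized and filtered per the study's methods, whose median absolute difference from the values computed here was 0.000557.

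Here control and outlier-flagged spots were left out, repeated spots were averaged as log2 values, and the 8 channels were quantile-normalized. Of 41000 probes, 17912 were retained, with a signal well above background in 4 or more channels and Cy3 and Cy5 labellings no more than 2-fold apart in any of the 4 samples. The log2 IP/T is the mean of IP minus the mean of T over labellings. Probes were named through their transcript identifiers in a RefSeq table (GRCh38.p14), and 23958 matched 1 gene. The array was designed on hg18, so no gene coordinates are given. The list counts are for retained probes only.

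With 1 sample per group no test was run. The members, the lists and the alternatives were chosen with earlier results of these data known. Named were all member probes, and from each list the 3 highest and 2 lowest retained probes by IP/T in EV cells, the 2 largest differences among probes detected in all 8 channels, and the 5 named genes most like DET1. Python 3.11.15, numpy 2.4.6, pandas 2.3.3 and, for normexp with an offset of 50, limma 3.58.1 in R 4.3.3 were used. The ratio and filter code was tested on simulated data. The result of a marker gene is not reported here.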

Additional observations from a re-analysis of the deposited data

Results flagged for a closer look

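The spike-in RNAs are outside the comparisons of the report. The log2 IP/T of each spike-in was higher in sponge cells than in EV cells. The median of these differences was 1.57, with a range of 1.22 to 1.67 for the 10 spike-ins. Over the retained probes before normalization the median of the differences, sponge minus EV cells, was 0.0056. Set against the spike-ins instead of against all probes, the log2 difference of IP/T was -2.25 for DET1 and lay between -1.77 and -0.16 for the other 11 retained member probes, of which A_23_P422178 of CUL4B had the value nearest to 0. This subtracts the same amount from every member and leaves their order as it was. The difference was not tested, with 1 sample per group. No group held enough samples for an outlier to be sought.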

How the results depend on the processing

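The 11 alternatives were applied wherever a probe was retained, which under the common median left out A_23_P148463 of CUL4B and DDB1, and with all 8 channels required A_23_P422178. Alternatives that change only the filters leave the value of a retained probe as it was, and the deposited values nearly equal those computed here. The log2 difference of IP/T of DET1 was negative under all alternatives, which for the filter settings was fixed in advance. Normexp with quantile normalization gave -0.58 and each dye alone between -0.80 and -0.59. The difference of DET1 in total RNA was positive under each alternative that gives one. The count of member probes with a lower IP/T in both orientations was 3 of 12 and became 6 of 13 with normexp under either normalization. The count of list probes enriched at least 2-fold in the IP of EV cells was 23 of 89 and became 14 of 106 with normexp, loess and Aquantile and 12 of 106 with normexp and quantile normalization. The share of all retained probes with such a ratio in EV cells was 14.8%, and 6.02% and 6.64% with these 2 normexp settings. The cause was not tested. Of 129 values of single member probes under alternatives, 126 kept their sign for IP/T in EV cells, 127 in sponge cells and 119 for the difference. These counts include the filter settings, under which no sign could change, and so are not counts of independent checks. Counts in both orientations could not be computed for single dyes or orientations. No paired analysis was possible because each group is 1 RNA sample. With 4 arrays, differences within the gap between orientations are not resolved, and signals near background, as for A_23_P422178 and A_23_P123503, give the least certain ratios.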
